A study of Mus musculus with 4 samples.

Results

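Border-associated macrophages were followed through 10 marker genes (Mrc1, Cd163, Stab1, Lyve1, Cd209f, Folr2, Ms4a7, F13a1, Pf4 and Cbr2), selected by gene symbol from the 49993 genes with a count in each library. All 10 were found, and all 10 had reads in every library. The 4 libraries were bulk RNA-seq of CD11b+ cells isolated with magnetic beads from brains of 10-month-old mice that all carried APP/PS1, a transgene pair that causes amyloid to build up. Of these, 2 were APP/PS1+ asrij+/+ (AD) and 2 were APP/PS1+ asrij-/- (AD/KO), in which asrij (the gene Ociad1) was deleted constitutively, and so in every cell type rather than in macrophages alone. The labels do not say whether a library came from 1 mouse or a pool, so the spread between replicates may be partly technical.

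Border-associated macrophages are resident macrophages that sit around brain vessels, in the meninges and in the choroid plexus, outside the tissue where microglia live. They take up proteins and debris from the fluid at these borders through scavenger and lectin receptors, and several of the receptors are used to tell them from microglia. Both cell types carry CD11b, so bead selection on this protein does not separate them. In bulk RNA, fewer cells of a type and less RNA per cell cannot be told apart.

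The libraries held from 13102622 to 19810076 counts, and all levels below are CPM (reads scaled to the size of the library) after TMM normalization, which sets libraries level by the bulk of their genes. Ociad1 stood at 50.15 and 63.43 CPM in AD and at 38.89 and 32.13 CPM in AD/KO, so the transcript was not lost in the libraries labelled AD/KO. AD and AD/KO therefore stand for the labels throughout. Several libraries stood apart. AD replicate 2 held 4531 summed CPM of a 10-gene neutrophil list, against 336 to 529 in the others, and 1391 reads of Xist, a transcript made in females, against 3 to 15. AD/KO replicate 2 held 7295 summed CPM of 14 homeostatic microglia genes, against 14660 to 22070 in the others, and had the highest levels of the neuron, astrocyte and oligodendrocyte lists.

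The promoters of 4 members are shown because they belong to the markers with the smallest p-values (F13a1 and Ms4a7) and the highest levels (Stab1 and Mrc1). Each is the stretch of 250 bases before the annotated start farthest upstream, read 5′ to 3′ along the gene, from RefSeq on GRCm38.p6. They lie at chr13:37050245-37050494 (minus strand), chr19:11336147-11336396 (minus strand), chr14:31168642-31168891 (minus strand) and chr2:14229164-14229413 (plus strand) in the order below. Capitals mark matches on either strand to GAGGAA, the core of sites for the myeloid factor PU.1, and to TGCTGA, the core of the MAF response element.
F13a1: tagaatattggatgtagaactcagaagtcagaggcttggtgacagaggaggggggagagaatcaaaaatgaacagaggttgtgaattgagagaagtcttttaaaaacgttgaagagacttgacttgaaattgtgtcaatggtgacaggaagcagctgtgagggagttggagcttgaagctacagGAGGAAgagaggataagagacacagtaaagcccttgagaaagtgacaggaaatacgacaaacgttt
Ms4a7: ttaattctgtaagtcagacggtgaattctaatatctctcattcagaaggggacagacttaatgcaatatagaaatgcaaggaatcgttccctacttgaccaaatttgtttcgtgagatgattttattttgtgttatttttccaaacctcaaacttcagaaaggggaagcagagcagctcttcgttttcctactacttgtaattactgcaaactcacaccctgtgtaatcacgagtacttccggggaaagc
Stab1: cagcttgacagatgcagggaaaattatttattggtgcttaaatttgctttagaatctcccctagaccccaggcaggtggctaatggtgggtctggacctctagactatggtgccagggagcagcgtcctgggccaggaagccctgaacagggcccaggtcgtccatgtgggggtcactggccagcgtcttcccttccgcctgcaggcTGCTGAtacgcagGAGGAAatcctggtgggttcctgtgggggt
Mrc1: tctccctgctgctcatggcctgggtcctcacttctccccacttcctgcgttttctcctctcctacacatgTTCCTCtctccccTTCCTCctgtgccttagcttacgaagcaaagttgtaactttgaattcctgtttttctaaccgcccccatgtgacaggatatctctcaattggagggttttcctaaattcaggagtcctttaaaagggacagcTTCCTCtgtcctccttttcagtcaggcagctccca

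Promoters of 9 of the 10 members were matched, each at the start farthest upstream. F13a1, Ms4a7 and Folr2 had 2 entries for a start, and the other entry was not used for the members. The PU.1 core was present in 5 of the 9, against 23.3% of 32851 promoters of the same length. The MAF core was present in 2 (Stab1 and Folr2), against 16.1%. The 32851 promoters count each distinct start of a gene. F13a1 held the PU.1 core 66 bases before its start. Mrc1 held 3 copies, at 180, 167 and 35 bases, and Stab1 held 1 at 30 bases, with the MAF core at 43 bases. The Ms4a7 window held neither. Searches for TATAAA (12.4% of promoters) and TGANTCA, the AP-1 site (6.75%), found 1 member each, Cd209f in both cases. TGANTCA can share letters with the MAF core, and no member held both. A match describes letters and does not show binding.

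**Figure D1:**
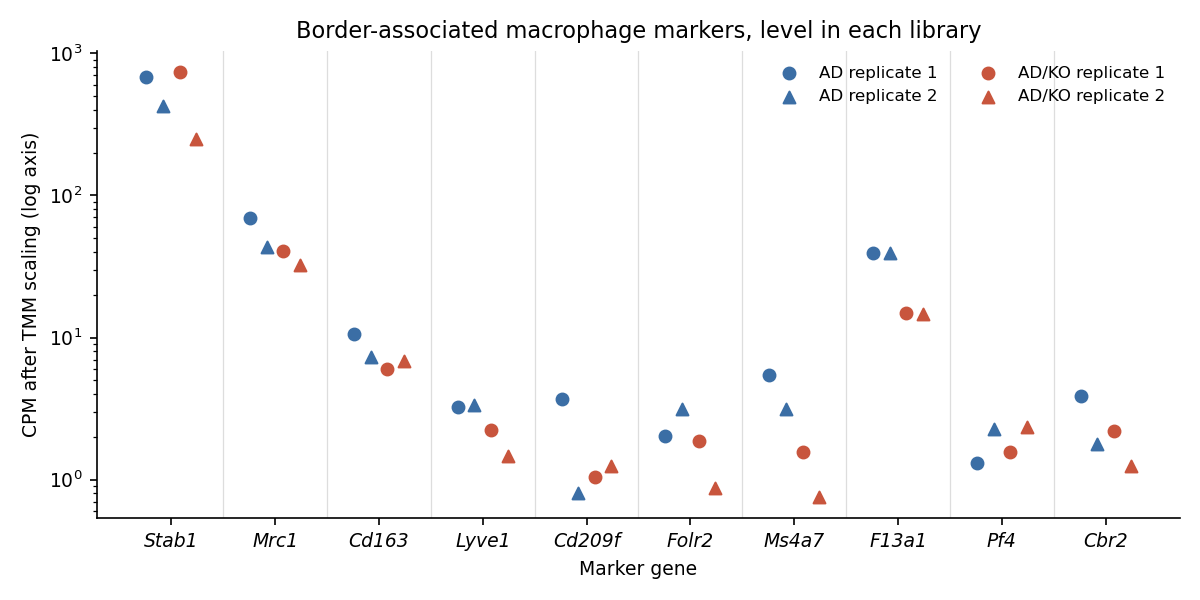
Level of the 10 markers in each library, in CPM after TMM scaling on a log axis. Each point is 1 library (blue AD, red AD/KO, circles replicate 1, triangles replicate 2). F13a1 stands at about the same level within each group, from 39.28 to 39.48 CPM in AD and from 14.65 to 14.86 CPM in AD/KO, while Stab1 overlaps between the groups.

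The comparison asked whether these markers differ between AD/KO and AD. Of the 10 members, 9 had a lower level in AD/KO and 1, Pf4, a higher one. Their median log2 fold change was −0.77, against −0.05 over the 21439 genes tested. Over all genes, 52.8% had a fold change below 0. In 6 members (F13a1, Ms4a7, Mrc1, Cd163, Lyve1 and Folr2) the higher AD/KO library was still below the lower AD library, against 21.7% of all genes. No member passed the threshold in the main fit: after adjustment over all genes, edgeR called 0 of 10 members and 0% of all genes. DESeq2 also called 0 members, and 0.27% of all genes. With the replicate number as a block, edgeR called F13a1 and Ms4a7, both lower, beside 20.2% of all genes (6.63% lower). The labels do not tie that number to a litter, batch or day. Before adjustment, F13a1 and Ms4a7 had a p under 0.05 with either tool and both were lower in AD/KO. With edgeR that held for 2.47% of all genes in that direction and for 3.01% in the other, where there was 0 of 10 members. Leaving out AD replicate 1 or AD replicate 2 gave calls for 0.217% and 2.85% of all genes, and for 0 members. The median of the members moved to −0.24 when AD replicate 1 was left out, to −0.51 when AD/KO replicate 2 was left out and to −0.15 after scaling to the homeostatic microglia genes. That scaling moved the median of all genes from −0.05 to 0.69, so that 6 of 10 members were then below 0, against 21.7% of all genes. Relative to the median of all genes, the median of the members was −0.72 before this scaling and −0.85 after it. The scaling shifts all genes of a library alike, so this difference stays nearly fixed and does not test the fall.

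Among the members that are secreted or act inside the cell, F13a1 gave the tightest separation. It encodes the A subunit of coagulation factor XIII, a transglutaminase that crosslinks fibrin and is made by macrophages, monocytes and platelets. F13a1 (gene ID 74145, chromosome 13, 36867178 to 37050244) stood at 39.48 and 39.28 CPM in AD and at 14.86 and 14.65 CPM in AD/KO. The 2 groups did not overlap, and the libraries of a group differed by less than 1 CPM. The AD/KO mean was 37.5% of the AD mean (39.4 ± 0.146 against 14.8 ± 0.146 CPM, SD, n = 2 each). The log2 fold change was −1.42 (SE 0.28, unadjusted p = 0.0039, adjusted p = 0.653 by edgeR's quasi-likelihood test). It ran from −1.42 to −1.36 when each library was left out in turn, and was −0.62 with the libraries scaled to the homeostatic microglia genes, under which the median of all genes was 0.69. Its exons share 74 bases with Gm30489, an antisense gene with 53, 40, 20 and 19 reads.

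The monocyte list of 7 genes moved with F13a1 in part. Ccr2, the chemokine receptor of inflammatory monocytes, stood at 39.77 and 39.95 CPM in AD and at 10.27 and 6.13 CPM in AD/KO, again without overlap. Ly6c2 stood at 5.23 and 27.97 CPM in AD and at 3.96 and 2.66 CPM in AD/KO. All 7 monocyte genes had a lower mean in AD/KO, where 52.8% of all genes did, and 5 of 7 did not overlap (background 21.7%). Relative to the homeostatic list 3 of 7 were lower without overlap (background 10.9%). Their summed level was 96.2 and 463 CPM in AD and 54.0 and 77.0 CPM in AD/KO. The high value of AD replicate 2 came mainly from Chil3 (293.7 CPM), and neither F13a1 nor Ccr2 had such a peak there. The median log2 fold change of the list was −2.32. By edgeR's quasi-likelihood test 5 of 7 were lower at an unadjusted p under 0.05 (2.47% of all genes), and 0 at an adjusted p under 0.05. The part of monocyte RNA in the F13a1 difference was not tested.

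Pf4, platelet factor 4, is a CXC chemokine of platelet granules that border macrophages also express. Pf4 (gene ID 56744, chromosome 5, 90772435 to 90773383) stood at 1.31 and 2.27 CPM in AD and at 1.56 and 2.33 CPM in AD/KO, from 18 to 43 reads. The groups overlapped, and in both of them replicate 2 was higher. Its log2 fold change was 0.12 (SE 0.60) and turned to −0.24 without AD replicate 1 and to −0.19 without AD/KO replicate 2. Ppbp, the other abundant platelet chemokine gene, stood at 0.58 and 1.66 CPM in AD and at 0.10 and 0.16 CPM in AD/KO. These values came from 8 and 27 reads in AD and from only 2 and 3 reads in AD/KO. Gp1bb, a platelet glycoprotein gene, ran the other way, at 0.73 and 2.89 CPM in AD and at 4.69 and 10.58 CPM in AD/KO. Of the 7 platelet genes tested, 4 had a fold change below 0 and 3 above. Of the 9 platelet genes in all, Gp6 had at most 3 reads in any library, and the summed level of the list was between 36.4 and 48.0 CPM. Platelet RNA as a part of the Pf4 level was not tested.

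Cbr2, a carbonyl reductase of the short-chain dehydrogenase family, is an enzyme marker of border macrophages. Cbr2 (gene ID 12409, chromosome 11, 120729485 to 120732025) stood at 3.85 and 1.78 CPM in AD and at 2.19 and 1.25 CPM in AD/KO. The groups overlapped, since AD/KO replicate 1 exceeded AD replicate 2, and the log2 fold change was −0.70 (SE 0.66). It was −0.06 without AD replicate 1.

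Ms4a7, a membrane protein with 4 spans from the MS4A family, is a marker that border macrophages carry and resting microglia largely lack. Ms4a7 (gene ID 109225, chromosome 19, 11321039 to 11336146) stood at 5.44 and 3.13 CPM in AD and at 1.56 and 0.76 CPM in AD/KO, from 75, 51, 30 and 14 reads. The groups did not overlap, and the AD/KO mean was 27.1% of the AD mean. The log2 fold change of −1.87 (SE 0.65, unadjusted p = 0.0353, adjusted p = 0.653 by edgeR's quasi-likelihood test) was the lowest among the members. It ran from −2.43 to −1.43 when each library was left out in turn and was −1.38 with scaling to the homeostatic microglia genes. Ms4a7 transcripts hold a stretch of about 100 bases that matches 10 other genes at up to 97.1% identity, so that some of its reads could be shared.

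**Figure D2:**
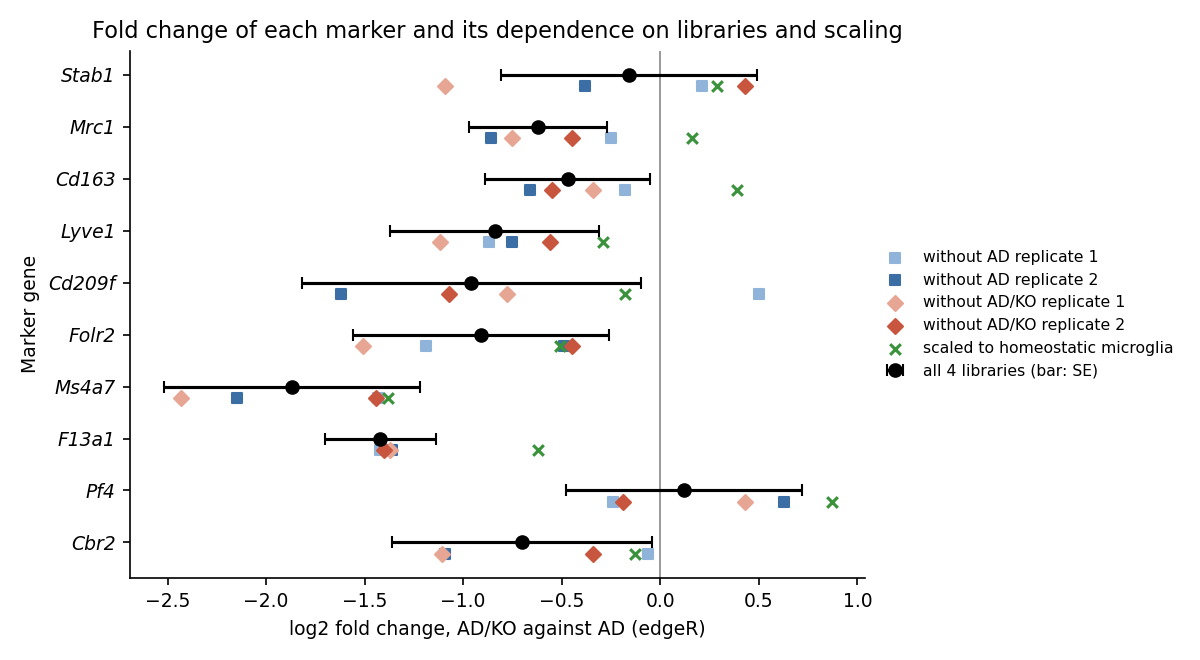
log2 fold change of each marker in AD/KO against AD from edgeR, with its standard error (black), without each library in turn (squares and diamonds) and with the libraries scaled to the homeostatic microglia genes (green crosses). F13a1 keeps values from −1.42 to −1.36 without any 1 library, whereas Stab1, Pf4 and Cd209f cross 0.

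Mrc1 and Cd163 are the endocytic receptors most often used to name border macrophages. Mrc1, the mannose receptor CD206, binds mannosylated glycoproteins and collagen fragments. Mrc1 (gene ID 17533, chromosome 2, 14229414 to 14332023) stood at 69.17 and 43.09 CPM in AD and at 40.66 and 32.23 CPM in AD/KO. The groups did not overlap, but AD replicate 2 lay closer to AD/KO replicate 1 than to AD replicate 1. The log2 fold change was −0.62 (SE 0.35, adjusted p = 0.653 by edgeR's quasi-likelihood test) and −0.25 without AD replicate 1. Cd163, the scavenger receptor for haptoglobin-bound haemoglobin, showed a smaller gap. Cd163 (gene ID 93671, chromosome 6, 124304636 to 124330529) stood at 10.67 and 7.25 CPM in AD and at 6.05 and 6.84 CPM in AD/KO. AD replicate 2 stood only just above both AD/KO libraries, and the log2 fold change was −0.47 (SE 0.42). The value was −0.18 without AD replicate 1.

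Lyve1, a hyaluronan receptor, marks the perivascular and leptomeningeal subset and also lymphatic endothelium. Lyve1 (gene ID 114332, chromosome 7, 110850607 to 110862953) stood at 3.27 and 3.38 CPM in AD and at 2.24 and 1.47 CPM in AD/KO, without overlap. The log2 fold change was −0.84 (SE 0.53), between −1.12 and −0.56 with each library left out. Of 5 lymphatic endothelial genes, Ccl21a had 0 reads in all libraries and Mmrn1 at most 3. Prox1 held most of that list, at 40.86 and 61.10 CPM in AD and at 43.01 and 49.65 CPM in AD/KO, and is also expressed by neural cells.

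Folr2, the folate receptor beta of tissue macrophages, stood at 2.03 and 3.13 CPM in AD and at 1.88 and 0.87 CPM in AD/KO (gene ID 14276, chromosome 7, 101839988 to 101857190). The groups did not overlap, although AD replicate 1 and AD/KO replicate 1 were close, and the log2 fold change was −0.91 (SE 0.65). Without AD/KO replicate 2 it was −0.45. The Folr2 counts are uncertain, because 63.1% of its exon bases overlap Gm10602 on the other strand and the use of strand in counting is not stated. Gm10602 had 167, 99, 167 and 95 reads, more than Folr2 in every library (28, 51, 36 and 16).

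Cd209f belongs to the DC-SIGN lectin cluster, whose proteins bind sugars on microbes and host glycoproteins. Cd209f (gene ID 69142, chromosome 8, 4102784 to 4105838) stood at 3.70 and 0.80 CPM in AD and at 1.04 and 1.25 CPM in AD/KO. AD replicate 1 alone was high, and AD replicate 2 was the lowest of all 4. The log2 fold change of −0.96 (SE 0.86) turned to 0.50 without AD replicate 1. A stretch of 503 bases is 99.6% identical to Cd209g, which had 15, 6, 15 and 7 reads, so the counts of this pair are uncertain.

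Stab1, stabilin-1, is a large scavenger receptor for modified lipoproteins and matrix fragments. Stab1 (gene ID 192187, chromosome 14, 31139017 to 31168651) stood at 679.0 and 426.8 CPM in AD and at 739.3 and 251.0 CPM in AD/KO. The groups overlapped: AD/KO held both the highest and the lowest library. The log2 fold change was −0.16 (SE 0.65), with values of −1.09 without AD/KO replicate 1 and 0.43 without AD/KO replicate 2. Stab1 made up 80.3% to 91.1% of the summed level of the members. That sum was 818 and 531 CPM in AD and 811 and 313 CPM in AD/KO, which overlapped. Without Stab1, a choice made after its values were seen, it was 139 and 104 CPM in AD and 72.0 and 61.6 CPM in AD/KO, and the AD/KO mean was 55.0% of the AD mean.

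Per length, as mean CPM over the 4 libraries per kilobase of exon, Stab1 led at 50.9, followed by Mrc1 (7.27), F13a1 (4.02), Pf4 (2.59), Cbr2 (1.71), Cd163 (1.41), Folr2 (1.28), Lyve1 (0.887), Cd209f (0.854) and Ms4a7 (0.612). Stab1 exceeded Mrc1 in every library, from 24.4 to 71.9 against 5.06 to 10.9. Mrc1 exceeded F13a1 in each library as well, although their ranges overlapped. From F13a1 down the ranges of neighbours also overlapped. Examples are 2.17 to 5.86 for F13a1, 1.81 to 3.24 for Pf4 and 0.941 to 2.90 for Cbr2. Among these neighbours only Folr2 and Lyve1 kept their order in each library, and the Folr2 counts are uncertain. The order of the others is not resolved. The microglial receptor gene Csf1r stood at 680 on the same scale.

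The label was checked against microglial genes, since the homeostatic microglia list was at 7295 to 22070 summed CPM. Each level was divided by the summed CPM of the 14 homeostatic microglia genes and given per 1000 CPM of that list. Stab1 then took values of 31.9 and 29.1 in AD and 33.5 and 34.4 in AD/KO, nearly the same in all libraries. Over the 4 libraries its centred log2 profile was the closest of the members to the mean of the homeostatic list, at a root mean square distance of 0.168, against 0.418 to 0.932 for the other 9. By this measure Stab1 ran with the microglial genes, so in these libraries its level cannot be read as a measure of border macrophages alone. With 4 libraries such likeness describes the order of the samples. The other 9 together amounted to 6.53 and 7.10 in AD and to 3.27 and 8.45 in AD/KO. Here the groups overlapped, and AD/KO replicate 2, the library with the least microglial RNA, was the highest.

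**Figure D3:**
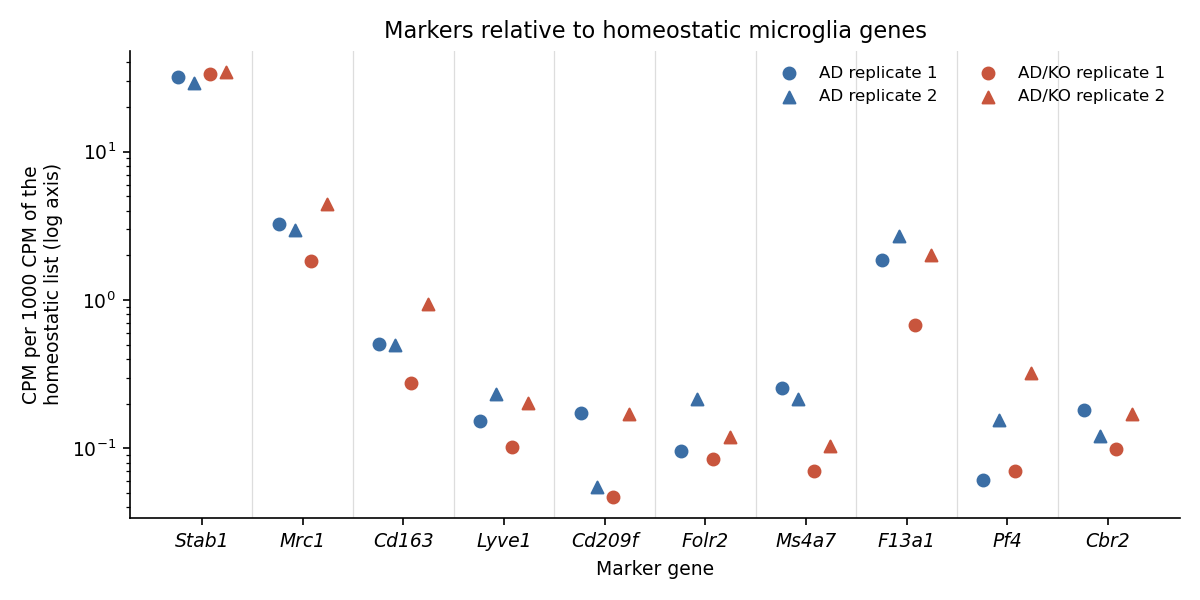
The 10 markers divided by the summed level of 14 homeostatic microglia genes, as CPM per 1000 CPM of that list, on a log axis. Each point is 1 library (colours and shapes as labelled). Ms4a7 is lower in both AD/KO libraries (0.0709 and 0.104) than in both AD libraries (0.256 and 0.214), and Stab1 is almost flat.

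On this scale Ms4a7 alone was lower in both AD/KO libraries, at 0.256 and 0.214 in AD and 0.0709 and 0.104 in AD/KO, against 10.9% of all genes. That share of the members, 1 of 10, is near the background. F13a1 stood at 1.86 and 2.68 in AD and at 0.673 and 2.01 in AD/KO, so that AD/KO replicate 2 lay within the AD range. Mrc1 stood at 3.25 and 2.94 in AD and at 1.84 and 4.42 in AD/KO, and Cd163 at 0.502 and 0.495 in AD and 0.274 and 0.937 in AD/KO. For both receptors the AD/KO libraries lay on opposite sides of AD. Stab1 was the 1 member higher in both AD/KO libraries, against 6.16% of all genes.

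A wider list of 30 genes linked to border macrophages was described in the same way. Of the 27 tested, 22 had a lower mean in AD/KO (background 52.8%), with a median log2 fold change of −0.76. Of these 27, 13 were lower without overlap and 2 were higher without overlap (background 21.7% and 20.3%). By edgeR's quasi-likelihood test 0 had an adjusted p under 0.05. At an unadjusted p under 0.05 there were 6 lower and 1 higher (background 2.47% and 3.01%). Relative to the homeostatic list, 10 of 27 were lower without overlap (background 10.9%) and 2 were higher (background 6.16%). Of the 14 homeostatic microglia genes themselves, 6 were lower without overlap on this scale and 2 were higher. In CPM, 12 of those 14 had a fold change below 0, and 2 were lower without overlap. These 14 genes form the divisor, so a rise in any of them lowers the rest. Sparc, for example, took values of 71.1 and 81.5 in AD and 84.7 and 202 in AD/KO. The counts of these 14 genes therefore cannot show whether a fall on this scale is particular to border macrophage genes. Grouped by family after the values were seen, 6 of the 7 tested C-type lectin genes had a lower mean and 1, the collectin Colec12, a higher one. Clec10a, Clec4n, Cd209a and Mgl2 were lower without overlap, and Colec12 was higher without overlap. Cd209a, a lectin also found on dendritic cells, stood at 4.65 and 4.43 CPM in AD and at 1.62 and 1.03 CPM in AD/KO. The 4 MS4A genes also had a lower mean, 2 of them without overlap. Siglec1, the sialoadhesin of tissue macrophages, stood at 21.41 and 16.41 CPM in AD and at 8.60 and 6.40 CPM in AD/KO (log2 fold change −1.33, SE 0.37).

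Single genes of this list differed widely. Selenop, a secreted selenium carrier, stood at 657.9 and 602.9 CPM in AD and at 658.8 and 420.2 CPM in AD/KO, and Maf, a macrophage transcription factor, at 391.5 and 251.0 CPM and at 330.8 and 129.6 CPM. Both overlapped between the groups. Lyz2, lysozyme of myeloid cells, stood at 300.7 and 815.3 CPM in AD and at 163.9 and 141.7 CPM in AD/KO (log2 fold change −1.87, SE 0.58). Its peak fell in AD replicate 2, the library with the neutrophil genes, whose part in the difference was not tested. Among genes with a mean of at least 1 CPM, the lowest fold changes belonged to Wfdc17 (2.03 and 4.73 against 0.52 and 0.98 CPM, log2 fold change −2.17, SE 0.73) and Ms4a4a (2.83 and 6.52 against 1.25 and 1.19 CPM, −1.93, SE 0.64). The highest belonged to Colec12, a scavenger collectin also made by vascular and stromal cells (2.98 and 5.22 against 12.04 and 10.42 CPM, 1.45, SE 0.46), and Ednrb, an endothelin receptor also made by astrocytes (13.72 and 29.69 against 32.79 and 71.41 CPM, 1.26, SE 0.56). Adjusted p was 0.653 for each of these 4 by edgeR's quasi-likelihood test.

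MHC class II genes mark a second subset of border macrophages, and are also carried by dendritic cells, B cells and activated microglia. All 6 genes of this list had a lower mean in AD/KO (background 52.8%), 5 without overlap (background 21.7%), with a median log2 fold change of −1.42. Relative to the homeostatic list 5 of 6 were lower without overlap (background 10.9%). Cd74, the invariant chain, stood at 172.4 and 96.13 CPM in AD and at 67.93 and 26.81 CPM in AD/KO. H2-Aa stood at 47.61 and 30.30 CPM in AD and at 18.82 and 9.39 CPM in AD/KO. By edgeR's quasi-likelihood test 0 of 6 had an adjusted p under 0.05 and 2 an unadjusted p under 0.05, both lower (2.47% of all genes).

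**Figure D4:**
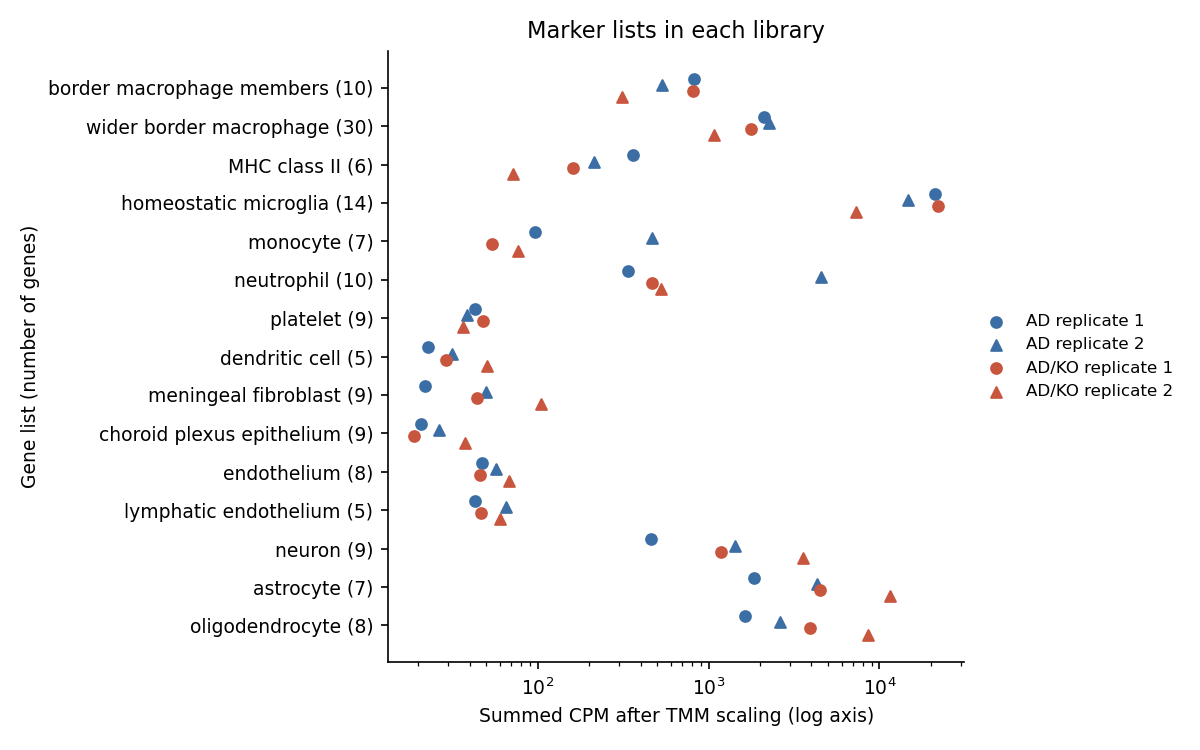
Summed CPM of each marker list in each library on a log axis, with the number of genes in parentheses. The MHC class II list stands at 362 and 214 CPM in AD and at 160 and 71.3 CPM in AD/KO, and the neutrophil list peaks in AD replicate 2 at 4531 CPM.

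Genes of the tissue at the borders were also present. The 9 meningeal fibroblast genes summed to 21.8 and 49.7 CPM in AD and to 44.2 and 104 CPM in AD/KO, and 6 of the 8 tested had a fold change above 0. Col1a1, a collagen chain, stood at 6.97 and 12.66 CPM in AD and at 13.24 and 34.78 CPM in AD/KO, whereas Dcn stood between 0.57 and 0.92 CPM and Lum had at most 3 reads in any library. The 9 choroid plexus epithelial genes summed to between 18.9 and 37.5 CPM, with Ttr at 5.73 to 19.70 CPM. Of the 6 tested, 5 had a fold change above 0 and 1, Kcnj13, below (9.94 and 6.02 CPM in AD, 5.16 and 3.20 in AD/KO). Folr1 had 0 reads in both AD libraries and 3 and 8 in AD/KO, and Sostdc1 at most 3 in any library. The 8 endothelial genes summed to between 45.9 and 67.7 CPM. All 3 lists were highest in AD/KO replicate 2, the library in which Stab1, Mrc1, Lyve1, Folr2, Ms4a7, Cbr2 and F13a1 were lowest. The neuron, astrocyte, oligodendrocyte and mural cell lists were also highest there, so the rise was not particular to the borders. Cd163, Cd209f and Pf4 had their lowest library elsewhere.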

How the data were processed

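Stranded libraries were made from TRIzol-extracted RNA after removal of ribosomal RNA, per the labels' protocols. The authors deposited whole-number read counts per gene symbol for each library. HISAT2, SAMtools and featureCounts (Subread) with the build mm10 are named in the submitters' processing notes, without settings. The annotation and the use of strand are not given in the sources used here. Each table also had 11 broken lines without a count, so 4 genes were not analysed here. All 49993 symbols matched RefSeq for GRCm38.p6, which gave coordinates. Exon lengths came from GENCODE M21, also on GRCm38.

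The libraries held 13102622, 15928196, 19302474 and 19810076 counts (AD replicates 1 and 2, AD/KO replicates 1 and 2). A count of 3 corresponds to at most 0.229 CPM. Groups were read from the sample titles. The test was edgeR 4.0.16 (quasi-likelihood, TMM, filterByExpr with a minimum count of 10 and a total of 15) in R 4.3.3 on all 4 libraries without covariates, with Benjamini-Hochberg adjustment over 21439 genes at 0.05. All 10 members passed the filter. The standard error is the log2 fold change over the square root of F. The procedure was tested on simulated data. Alternatives were DESeq2 1.42.0, its size factors, other filters, edgeR's legacy method, the replicate number as a block, scaling to 14 homeostatic genes, and each library left out. A second microglial reference is not reported here. Shared sequence was searched with BLAST 2.17.0 (at least 95% over at least 100 bases).

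The members and lists were chosen with earlier results of these data known. All members are named. From the wider list the 3 genes with the highest mean and the 2 lowest and 2 highest fold changes (mean of at least 1 CPM) are named. The others were chosen after their values were seen.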

Additional observations from a re-analysis of the deposited data

How the results depend on the processing

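The count of genes past the threshold was 0 by edgeR (1175 before adjustment) and 91 by DESeq2. It was 50 without AD replicate 1 and 654 without AD replicate 2, a range of 0 to 654 over the 4 fits that left out a library. The cause was not tested. The count of members called was 0 in all of these, and 0 in each fit without a library. AD and AD/KO share replicate numbers that the labels do not tie to a litter, batch or day. With the replicate number as a block, 4320 genes (20.2%) and 2 members were called: F13a1 at −1.42 (adjusted p = 0.00459) and Ms4a7 at −1.90 (adjusted p = 0.0210, both edgeR quasi-likelihood), where 6.63% of all genes were called lower. Across genes, libraries with the same number deviated together (correlation 0.68).

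The median of the members, −0.77, was −0.15 with scaling to the homeostatic list and ran from −1.10 to −0.24 with a library left out. That scaling moved the median of all genes from −0.05 to 0.69 and left 21.7% of all genes below 0. Mrc1 was then at 0.16, Cd163 at 0.39 and Stab1 at 0.29, all below that median. The scaling shifts that median and the members nearly alike. Without AD replicate 1, Pf4 turned to −0.24, Stab1 to 0.21 and Cd209f to 0.50, and without AD/KO replicate 2, Pf4 turned to −0.19 and Stab1 to 0.43. Over all fits that left out a library, Pf4 ran from −0.24 to 0.63, Stab1 from −1.09 to 0.43 and Cd209f from −1.62 to 0.50. Of 110 values of single members under alternatives, 100 kept their direction and stayed short of the threshold. The summed level of AD/KO came to 83.3% of AD, and 55.0% without Stab1, an alternative chosen after seeing the data. Relative to the homeostatic list it was 107%, and 85.9% without Stab1, and the groups overlapped in both. Without Stab1 the AD/KO libraries (3.27 and 8.45 per 1000 CPM) lay on opposite sides of AD (6.53 and 7.1). Depth limits Ms4a7, Pf4, Cbr2, Folr2, Lyve1 and Cd209f, which had 13 to 75 reads a library.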

Other observations

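The mean centred log2 level of the 10 members ran from 0.53 in AD replicate 1 through 0.13 in AD replicate 2 and −0.15 in AD/KO replicate 1 to −0.52 in AD/KO replicate 2. The 5 genes with a mean of at least 5 CPM whose profile was nearest to it were Srek1, Gm17068, Alpk1, Tbl1xr1 and Tmem255b, at root mean square distances of 0.025 to 0.031 over the 4 libraries. Srek1, a splicing regulator, stood at 182.4 and 135.0 CPM in AD and at 116.4 and 86.45 CPM in AD/KO, and Tbl1xr1, a corepressor subunit, at 236.2 and 173.5 CPM and at 151.0 and 111.1 CPM. These are no markers of border macrophages. With 4 libraries such likeness is a description of the order of the samples.

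Clec9a, a lectin of conventional dendritic cells, stood at 2.03 and 2.09 CPM in AD and at 0.63 and 0.54 CPM in AD/KO, while Flt3, the growth factor receptor of the same lineage, stood at 6.53 and 7.38 CPM and at 10.17 and 22.52 CPM. These 2 genes of the 5 in the dendritic cell list lay in opposite directions, both without overlap (background 21.7% lower, 20.3% higher). Zbtb46, the other gene tested, overlapped, at 13.65 and 21.45 CPM in AD and at 17.73 and 26.86 CPM in AD/KO. Xcr1 and Ccr7 did not pass the filter on low counts. Of the 5 T and NK cell genes, 0 passed the filter on low counts, and Cd3e and Ncr1 had at most 3 reads in any library.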
